A study of Mus musculus with 4 samples.

Results

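Oxidative phosphorylation is carried out by 5 protein complexes of the inner mitochondrial membrane, and the genes for their subunits were followed here in hypoxic mouse kidney tubule cells. The members were the genes whose symbols carry the standard stems of the subunits (Nduf with a, b, c, s or v and a number, Sdh a to d, Uqcr, Cyc1, Cox4 to Cox8 with a letter, and Atp5), together with the mitochondrially encoded mt-Nd, mt-Co, mt-Cyb and mt-Atp genes. They numbered 99 of the 22063 genes listed, 87 in the nuclear genome and 12 in the mitochondrial genome. Complex I held 46 members (39 nuclear and 7 mitochondrial), complex II 4, complex III 9, complex IV 20 (17 and 3) and complex V 20 (18 and 2). The symbol of cytochrome b in the table, *mt-Cytb*, lies outside the pattern, so complex III held no mitochondrial member and *mt-Cytb* was described beside it.

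Complex I (NADH dehydrogenase) and complex II (succinate dehydrogenase) feed electrons from NADH and succinate to ubiquinone, complex III passes them to cytochrome c, and complex IV hands them to oxygen. Complexes I, III and IV pump protons, and complex V, the ATP synthase, uses the gradient to make ATP. Most subunits are encoded in the nucleus and imported, whereas a small core of complexes I, III, IV and V is transcribed from mitochondrial DNA as long polycistronic RNAs that are cut into single messages. Proximal tubule cells are rich in mitochondria, because the reabsorption of solutes from the filtrate depends on ATP.

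The study asked how integrin αvβ6, an epithelial receptor whose β6 chain is encoded by *Itgb6*, acts in injured tubule cells. TKPTS cells (written TKPT in the labels), a mouse proximal tubule epithelial line, were transfected with a scrambled siRNA (si-NC) or with siRNA against *Itgb6* (si-Itgb6). Both groups then had hypoxia (1% O2, 5% CO2) for 24 h followed by 12 h at normal oxygen, so no library came from cells without hypoxia. Polyadenylated RNA was sequenced in 2 libraries a group, labelled si-NC replicates 2 and 3 and si-Itgb6 replicates 1 and 3, of a single cell line.

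The libraries held 15435074 to 17220281 estimated counts. The targeted gene came first as a check of the labels. For *Itgb6* the si-NC libraries (replicates 2 and 3) gave 285 and 284 counts, and those labelled si-Itgb6 (replicates 1 and 3) gave 279 and 260. Its log2 fold change was −0.01 (SE 0.13, adjusted p = 0.991 by the quasi-likelihood test of edgeR after Benjamini-Hochberg adjustment). A lower *Itgb6* message was therefore not seen in these libraries, and si-Itgb6 stands below for the label only. The study itself reported a check of the siRNA by qPCR and western blot, with less αvβ6 protein in hypoxic si-Itgb6 cells. Of the 14 kidney epithelial markers, *Pax8*, *Krt8*, *Krt18*, *Cdh1* and *Epcam* each had 4682 or more counts in every library, whereas the proximal tubule transporters *Slc34a1*, *Slc5a2* and *Slc22a6* were at 0 in all 4. Within that list *Krt8* was at −0.20 (adjusted p = 0.00881) and *Aqp1* at 0.59 (adjusted p = 0.000617) in log2 fold change. Of 16 macrophage, fibroblast and endothelial markers, 12 had too few counts to test. *Cd68*, a lysosomal protein abundant in macrophages, had 1704 and 1968 counts against 1534 and 1617, and *Csf1r*, the receptor for IL-34, 449 and 468 against 418 and 365. Their log2 fold changes were −0.15 each (adjusted p = 0.244 and 0.517), and *Ptprc*, *Adgre1* and *Itgam* had 0 to 6 counts. Si-Itgb6 replicate 1 alone held 11 counts of *Lyz2*, 22 of *Col1a1* and 11 of *Col1a2*, where the other libraries held 0 to 2, and the part of such RNA in the results below was not tested.

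The sequences that matter most here are those of the mitochondrial members, which is where the groups differed. The first 60 bases of 6 of them are shown, 5′ to 3′ as in the GENCODE transcripts of GRCm38, with the first codon of the annotated reading frame in capitals. *mt-Nd2* lies on the plus strand of the mitochondrial chromosome at chrM:3914-4951, *mt-Co1* at chrM:5328-6872, *mt-Co2* at chrM:7013-7696, *mt-Atp6* at chrM:7927-8607 and *mt-Nd3* at chrM:9459-9806, whereas *mt-Nd6* is the single member on the minus strand, at chrM:13552-14070. Each is 1 exon without an intron. They were chosen because *mt-Nd2* and *mt-Nd3* had high fold changes among the complex I members, *mt-Co1* the most reads, *mt-Co2* and *mt-Atp6* a nuclear copy of the same sequence, and *mt-Nd6* the smallest fold change.
mt-Nd2: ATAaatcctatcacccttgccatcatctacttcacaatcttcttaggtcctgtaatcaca
mt-Co1: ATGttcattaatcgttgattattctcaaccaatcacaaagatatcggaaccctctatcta
mt-Co2: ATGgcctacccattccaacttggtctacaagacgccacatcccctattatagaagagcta
mt-Atp6: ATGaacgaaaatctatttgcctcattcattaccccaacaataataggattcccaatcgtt
mt-Nd3: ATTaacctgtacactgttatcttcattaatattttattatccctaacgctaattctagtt
mt-Nd6: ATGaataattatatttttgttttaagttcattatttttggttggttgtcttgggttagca

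The first codon is ATG in *mt-Co1*, *mt-Co2*, *mt-Atp6* and *mt-Nd6*, but ATA in *mt-Nd2* and ATT in *mt-Nd3*, since the mitochondrial code allows several starts. These transcripts are poor in G and C. Over the 12 mitochondrial members the GC content ran from 31.9% to 41.1% with a median of 36.5%, beside a median of 50.2% in the nuclear members tested and 49.8% in all genes tested. Mitochondrial genes also lie end to end, and *mt-Atp8* and *mt-Atp6* share 43 bases, *mt-Nd4l* and *mt-Nd4* 7 bases, and *mt-Nd5* and *mt-Nd6*, on opposite strands, 14 bases. Bases in such a stretch belong to both genes of the pair. As sequenced, the reads were longer than these stretches, so a read that touches one also covers bases outside it. The libraries were not strand-specific, so strand could not separate *mt-Nd5* from *mt-Nd6* in theirs. Stretches at least 95% identical to 9 of the 12 members occur in the nuclear chromosomes, with a 100% match to *mt-Atp6*, *mt-Co2*, *mt-Co3*, *mt-Nd4* and *mt-Nd4l* on chromosome 1. None of these 11 copies is listed in the table, and how the counting treated reads shared with them is not given in the sources used here.

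Mitochondrial members stood higher in si-Itgb6 than in si-NC, whereas no nuclear member passed the thresholds. A gene was called higher or lower where it met the thresholds of the study, a p under 0.05 before adjustment together with a change of over 1.2-fold either way, and an adjusted p under 0.05 was given beside that. By these thresholds 8 of the 12 mitochondrial members were called higher and 0 of the 78 nuclear members tested were called in either direction. Over all 11727 genes tested, 4.37% were called higher and 5.2% lower. By adjusted p, 8 mitochondrial and 0 nuclear members were higher, beside 2.11% higher and 2.52% lower of all genes. The 2 rules shared 6 mitochondrial members (*mt-Nd1*, *mt-Nd2*, *mt-Nd4*, *mt-Co2*, *mt-Co3* and *mt-Atp6*), and only *mt-Nd6* and *mt-Atp8* passed neither. In all 12 both si-Itgb6 libraries lay above both si-NC libraries, an arrangement held by 23.8% of all genes. The median log2 fold change was 0.38 for the mitochondrial members, 0.02 for the nuclear members and 0.0002 for all genes tested.

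**Figure D1:**
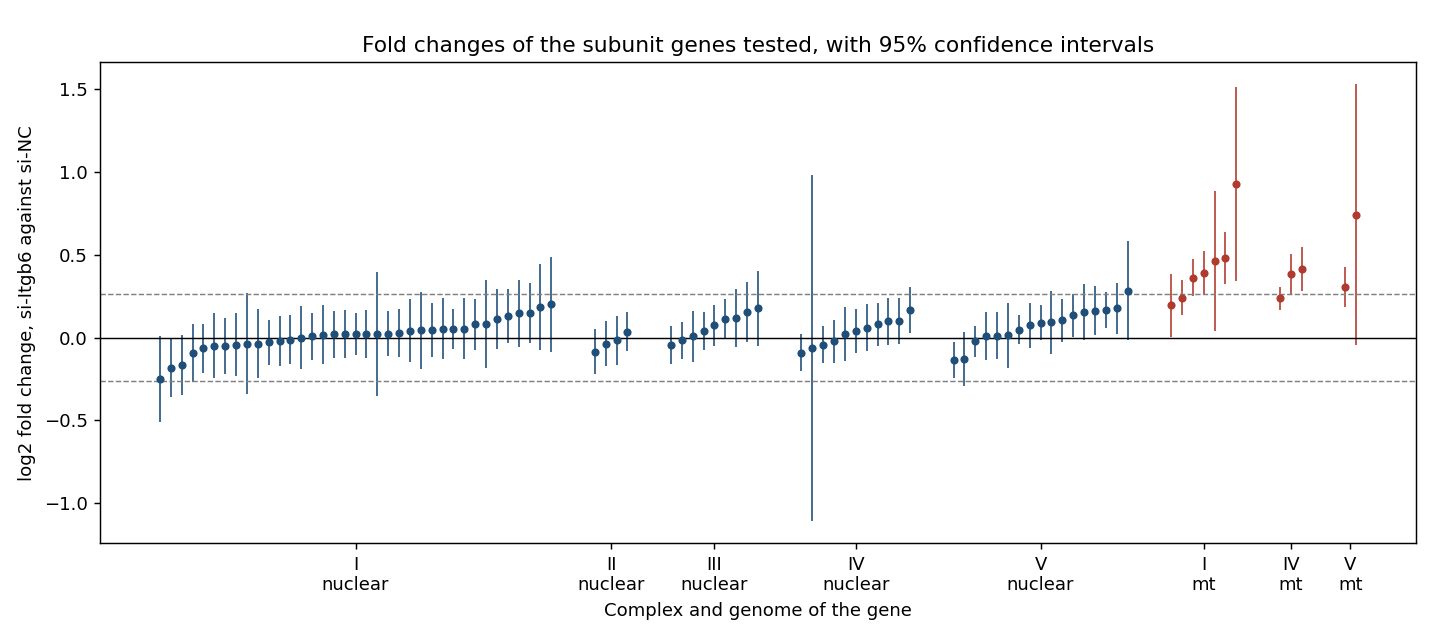
Points give the fitted log2 fold change of each of the 90 members tested (si-Itgb6 against si-NC, 2 libraries each) and vertical lines its 95% confidence interval; blue marks nuclear and red mitochondrial (mt) genes, ordered by fold change within each complex, and dashed lines mark a fold change of 1.2. All 12 red points lie above 0, with a median of 0.38, whereas the blue points lie on both sides of 0, between −0.25 and 0.28.

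Complex I contained 7 mitochondrial members, all of them subunits of the membrane arm that pumps protons. In CPM, the counts scaled to library size with TMM factors, *mt-Nd1* was at 112 and 120 in si-NC (replicate 2, then 3) and at 150 and 154 in si-Itgb6 (replicate 1, then 3), the order used throughout. Its log2 fold change came to 0.39 (SE 0.06, adjusted p = 0.000264 by edgeR's quasi-likelihood test). *mt-Nd2* was at 62.5 and 68.6 CPM against 94.8 and 88.3, a log2 fold change of 0.48 (SE 0.08, adjusted p = 0.000172). *mt-Nd4* was at 215 and 232 CPM against 284 and 291, a log2 fold change of 0.36 (SE 0.06, adjusted p = 0.000122). In these 3 genes the gap between the groups was wider than the gap between replicates. *mt-Nd5* was at 376 and 401 CPM against 472 and 446, and its log2 fold change of 0.24 (SE 0.05, adjusted p = 0.00432) stayed under the fold threshold of 1.2. *mt-Nd3* combined a large fold change with few reads, 30 and 57 counts in si-NC and 77 and 80 in si-Itgb6. On the log2 scale the difference was 0.93 (SE 0.29, adjusted p = 0.0568), and the 2 si-NC libraries differed from each other by more than si-NC replicate 3 did from either si-Itgb6 library. Without si-NC replicate 2 the value was 0.57, and without si-NC replicate 3 it was 1.42. The adjusted p of *mt-Nd3* was 0.0164 with no filter on low counts and 0.0339 with at least 10 counts in every library. *mt-Nd4l*, also a small gene, had 81 and 103 counts against 109 and 132 (log2 fold change 0.46, SE 0.21, adjusted p = 0.217). *mt-Nd6* was at 35.5 and 35.4 CPM against 42.3 and 38.9 (log2 fold change 0.19, SE 0.09, adjusted p = 0.266).

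**Figure D2:**
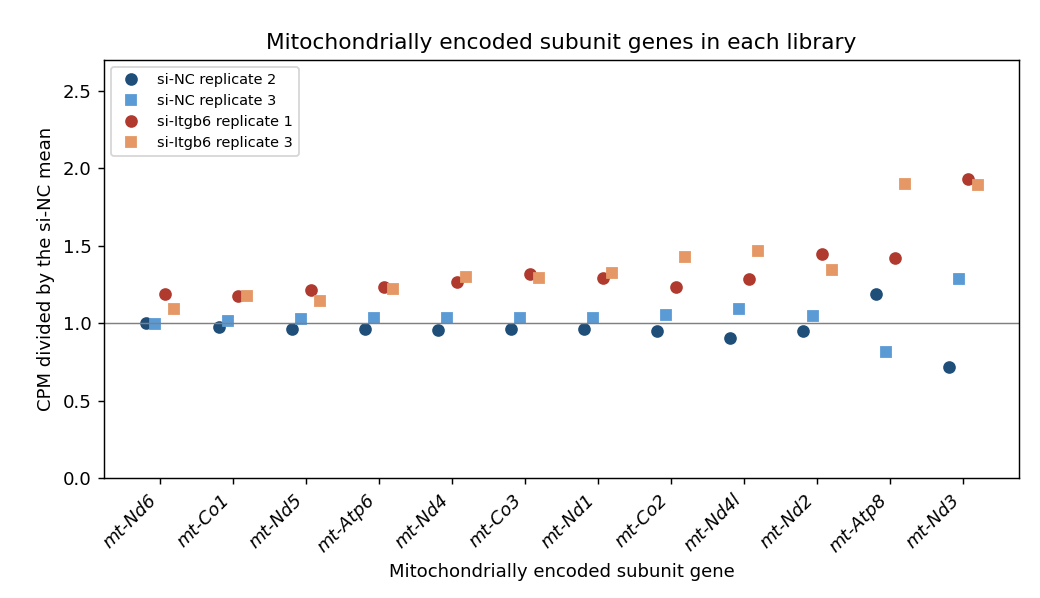
The vertical axis gives the CPM of each mitochondrial member in each library divided by the mean of both si-NC libraries, on a linear scale from 0, with genes ordered by fold change; blue symbols are si-NC and red or orange symbols si-Itgb6. The si-Itgb6 symbols lie above the si-NC symbols in all 12 genes, and the replicates are farthest apart in *mt-Nd3* (30 to 80 counts) and *mt-Atp8* (21 to 47 counts).

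Complex IV held the 3 subunits of cytochrome c oxidase that mitochondrial DNA encodes. *mt-Co1*, which carries the haem and copper centre where oxygen is reduced, had 375372 and 412956 counts in si-NC and 428383 and 454801 in si-Itgb6. That was 2.32% and 2.4% of all counts in si-NC, and 2.78% and 2.72% in si-Itgb6, with 95% Wilson intervals of 2.309% to 2.324%, 2.391% to 2.405%, 2.767% to 2.784% and 2.717% to 2.732%. These intervals cover counting error only. Its log2 fold change of 0.24 (SE 0.03, adjusted p = 6.71e-05) did not reach the fold threshold. *mt-Co2*, which takes the electrons from cytochrome c, was at 173 and 192 CPM against 225 and 260 (log2 fold change 0.41, SE 0.06, adjusted p = 0.000134). *mt-Co3* was at 143 and 153 CPM against 195 and 191 (log2 fold change 0.38, SE 0.06, adjusted p = 0.000165). In *mt-Co3* the gap between the groups was wider than the gap between replicates. In *mt-Co2* it was not wider than the gap between the si-Itgb6 replicates. In complex V, *mt-Atp6*, a part of the proton channel, was at 147 and 158 CPM against 189 and 187 (log2 fold change 0.30, SE 0.06, adjusted p = 0.00187). *mt-Atp8*, which overlaps it, had only 29 and 21 counts against 33 and 47 (log2 fold change 0.74, SE 0.39, adjusted p = 0.306), and with 1 library left out the value ran from 0.49 to 1.03. *mt-Cytb*, the cytochrome b of complex III, stood outside the members and was at 151 and 153 CPM against 196 and 202 (log2 fold change 0.39, SE 0.06, adjusted p = 0.000104).

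The mitochondrial members were also set against the nuclear members of the same libraries, which removes library depth. Without *mt-Co1*, they had 12.8 and 13.8 counts per 100 counts of nuclear members in si-NC, and 16.9 and 16.0 in si-Itgb6. Within complex I the ratio was 35.5 and 38.6 against 47.6 and 43.9, within complex IV without *mt-Co1* 23.3 and 25.7 against 31.3 and 32.4, and within complex V 3.27 and 3.51 against 4.24 and 3.92. In each of these the groups did not overlap. With 2 libraries a group the smallest p that an exact two-sided permutation test can give is 0.333, so no test was run on the ratios. In bulk RNA a change in the number of transcripts per cell and a change in the make-up of the cells cannot be told apart.

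The mitochondrial median stayed between 0.33 and 0.44 whichever library was left out, with all 12 fold changes above 0, whereas the calls varied. The median was lowest, at 0.33, when si-NC replicate 2, the library with the lowest values in most of these genes, was dropped. Dropping si-NC replicate 3 gave 0.44, and dropping si-Itgb6 replicates 1 and 3 in turn gave 0.39 and 0.36. Each of these fits left 1 library in a group, assumed to vary like the other group. Their calls have no replicate spread of that group behind them and are not listed here. These fits therefore cannot show whether the p-value of a single member rests on 1 library. When each library's trend on the GC content and length of transcripts was removed, the median of the mitochondrial members fell from 0.38 to 0.21. In that fit 11 of the 12 stayed above 0, *mt-Nd6* was at −0.05, *mt-Nd2* and *mt-Nd3* were called higher, and 3 had an adjusted p under 0.05, with 3.59% of all genes called higher and the same share lower. *mt-Co1* was then at 0.11 on the log2 scale (adjusted p = 0.0344), *mt-Co2* at 0.23 (adjusted p = 0.0371) and *mt-Nd2* at 0.29 (adjusted p = 0.0429).

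**Figure D3:**
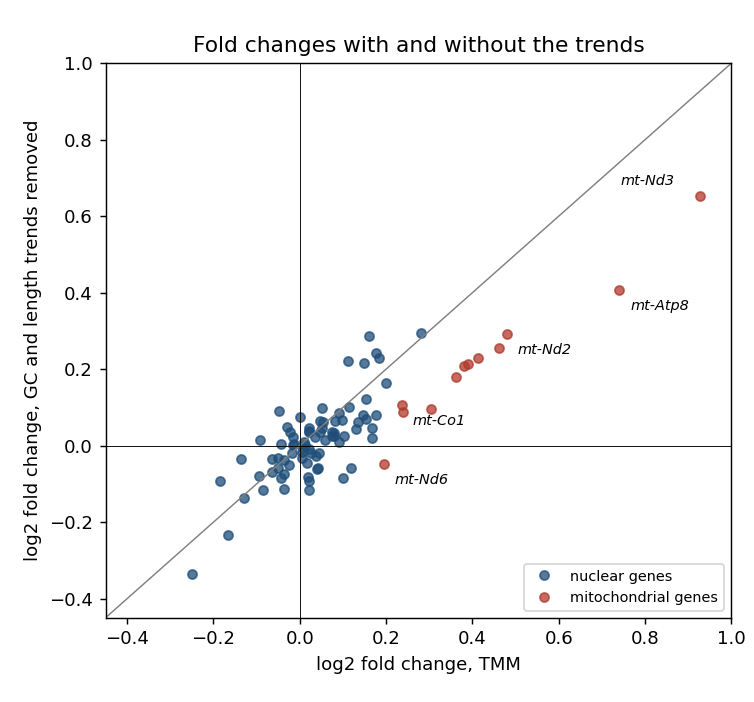
Each point is 1 of the 90 members tested, with its log2 fold change under TMM scaling on the horizontal axis and after removal of GC and length trends on the vertical axis; the diagonal marks equal values. All 12 mitochondrial members lie below the diagonal, and *mt-Nd6* falls below 0 on the vertical axis.

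The nuclear members were the larger group and showed small differences. Of the 78 tested, 52 had a fold change above 0 and 26 below, and the fold changes ran from −0.25 for *Ndufc1* to 0.28 for *Atp5k* on the log2 scale. An unadjusted p under 0.05 was found for 2 lower (*Ndufs7* and *Atp5d*) and 5 higher members (*Atp5o*, *Atp5g2*, *Atp5pb*, *Cox7b* and *Atp5l*). Of all 11727 genes tested, 1128 were lower and 1032 higher at that p. None of these nuclear members reached a fold change of 1.2, and DESeq2 called 0. The 95% confidence interval lay within a fold change of 1.2 for 51 of the 78 and within 1.5 for 77, so larger changes were outside the interval for nearly all of them. The exception was *Cox7a1*, with 14 to 19 counts a library. Si-Itgb6 replicate 3 had the highest nuclear median of the 4 libraries, 0.06 above the gene means on the log2 scale, against −0.03 in si-Itgb6 replicate 1. The si-NC libraries lay at −0.0039 and −0.0314, inside the range of the si-Itgb6 libraries.

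**Figure D4:**
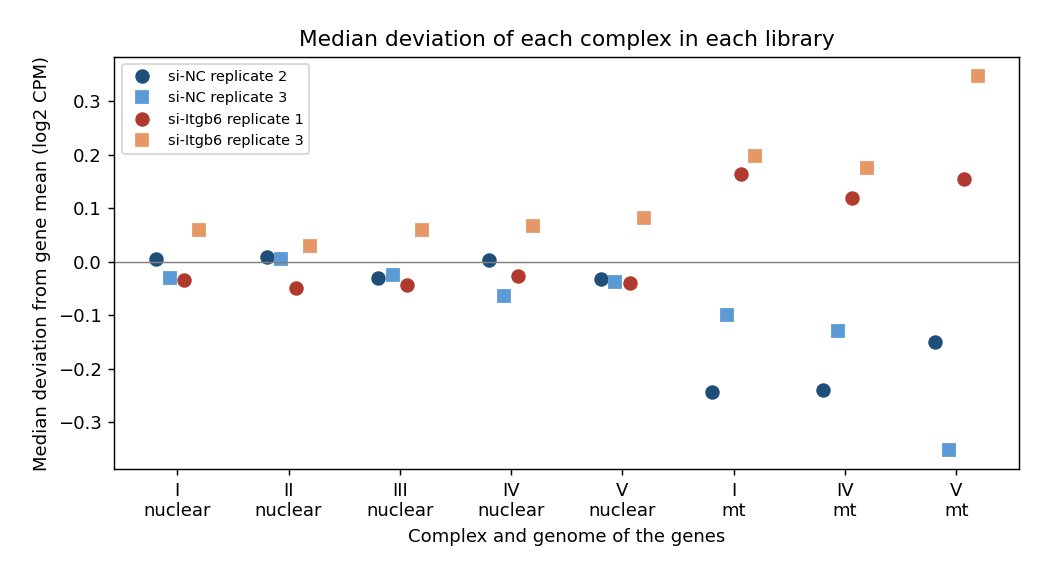
The vertical axis gives, for each library, the median deviation of the members of a complex from their gene means over the 4 libraries (log2 CPM); blue symbols are si-NC and red or orange symbols si-Itgb6. In the 5 nuclear groups si-Itgb6 replicate 3 lies highest and si-Itgb6 replicate 1 lies at −0.05 to −0.03, below both si-NC libraries in complexes I, II, III and V, whereas in the 3 mitochondrial (mt) groups both si-Itgb6 libraries lie above both si-NC libraries.

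In complex I the median was 0.02 over the 37 nuclear members tested, and 23 lay above 0 and 14 below. *Ndufc1*, an accessory subunit, had 321 and 353 counts in si-NC and 280 and 258 in si-Itgb6, the lowest fold change of the complex (log2 −0.25, SE 0.13, adjusted p = 0.29). *Ndufs7*, which carries the last iron-sulfur cluster before ubiquinone, had 890 and 846 counts against 695 and 760 (log2 fold change −0.18, SE 0.09, adjusted p = 0.248). Of both genes the groups did not overlap in CPM. That arrangement, with si-Itgb6 lower, was held by 11 of the 78 nuclear members tested and by 2977 of all 11727 genes. *Ndufs7* had an unadjusted p of 0.0411 but stayed under the fold threshold. The 7 nuclear core subunits, which hold the flavin and the iron-sulfur clusters, had fold changes from −0.18 to 0.08. *Ndufa4*, named for complex I but known as a subunit of complex IV, had 1756 and 1872 counts against 1578 and 1928 (log2 fold change 0.02). Complex II, the one complex with no mitochondrial gene, had small fold changes. *Sdha*, the flavoprotein, had a log2 fold change of 0.03, *Sdhb*, the iron-sulfur subunit, of −0.02, and the membrane anchors *Sdhc* and *Sdhd* of −0.04 and −0.08. All 4 had a 95% interval within a fold change of 1.2.

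In complex III the median was 0.07 over 9 members. *Uqcr11* and *Uqcrh*, small accessory subunits, were highest with log2 fold changes of 0.18 (SE 0.11, adjusted p = 0.418) and 0.15 (SE 0.09, adjusted p = 0.359). *Uqcrh* was at 863 and 954 counts in si-NC and 837 and 1090 in si-Itgb6, so the higher value came from si-Itgb6 replicate 3 and the groups overlapped. The electron carrier *Cyc1* (cytochrome c1) was at −0.05 and the core protein *Uqcrc1* at −0.02. In complex IV the 11 nuclear members tested had a median of 0.04. *Cox7b* had 1501 and 1608 counts against 1600 and 1722 (log2 fold change 0.17, SE 0.07, adjusted p = 0.164), and *Cox6a1* was lowest at −0.09 (SE 0.05, adjusted p = 0.383). *Cox4i1* and *Ndufab1*, subunits outside the name pattern, had log2 fold changes of 0.06 each, and *Cycs*, the mobile carrier cytochrome c, of −0.06.

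In complex V the nuclear median was 0.09 over 17 members, with 14 above 0. *Atp5pb*, subunit b of the stalk that holds the catalytic head in place, had 4565 and 4783 counts in si-NC and 4682 and 5309 in si-Itgb6 (log2 fold change 0.17, SE 0.05, adjusted p = 0.0668). Its adjusted p was 0.0395 with no filter on low counts and 0.0469 with at least 10 counts in every library. Its log2 fold change was 0.02 after removal of GC and length trends. *Atp5k*, the small subunit e, had the highest nuclear fold change on 183 and 202 counts against 214 and 231 (log2 0.28, SE 0.15, adjusted p = 0.306). *Atp5d*, the delta subunit of the rotor, was at 240 and 242 CPM against 219 and 220 (log2 fold change −0.14, SE 0.05, adjusted p = 0.157). *Atp5g1*, 1 of 3 genes for the c ring, was at −0.13 (SE 0.08, adjusted p = 0.407), whereas *Atp5g2* and *Atp5g3*, which encode the same mature c subunit, were at 0.16 and 0.07. *Atp5b*, the catalytic beta subunit, was at 0.05 (SE 0.04). *Atp5l* shares stretches of at least 95% identity with other listed genes, as does the *Atp5o* entry with a 530-base transcript. The *Atp5o* entry with a 932-base transcript, *Atp5g1*, *Atp5k* and *Atp5pb* share such stretches with pseudogenes that are not listed. Over all complexes 28 nuclear members share a stretch of this kind, which need not be a copy of the gene. In *Atp5l* the longest to a listed gene (*Senp6*) was 245 of 6310 bases. In *Ndufa13* it was 375 of 1251 bases, shared with *Tssk6* on the same chromosome, 8. Counts of reads from these stretches are less certain.

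Leaving out si-Itgb6 replicate 1 changed the nuclear calls most. That fit held a single si-Itgb6 library, so its calls have no replicate spread of si-Itgb6 behind them and are not listed. The nuclear median was 0.08 on the log2 scale without si-Itgb6 replicate 1 and −0.02 without si-Itgb6 replicate 3. After removal of GC and length trends *Atp5g2* and *Atp5k* were called higher and *Ndufc1* lower. That was 2.56% and 1.28% of the nuclear members tested, beside 3.59% of all genes in each direction. *Atp5g2* was then at 0.29 on the log2 scale (adjusted p = 0.0321 by edgeR's quasi-likelihood test). The mitochondrial *mt-Nd2* was at 0.29 as well (adjusted p = 0.0429), so in this setting the 2 genomes were less clearly apart.

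Levels between genes were compared per length with the FPKM values of the authors, as the mean and SD over the 4 libraries. *mt-Co1* stood far above every other member at 16500 FPKM (SD 1490). The next highest members were *Atp5b* at 898 (SD 21.7), *Cox8a* at 467 (SD 11.9), *Cox6a1* at 391 (SD 17.5), *Atp5a1* at 380 (SD 8.38) and *Uqcrq* at 365 (SD 10.8). The neighbours *Cox6a1* and *Atp5a1* lay within 1 SD of each other and were not separated. The other 11 mitochondrial members had a median of 140 FPKM, beside 101 for the nuclear members tested, and overlapped them widely. They ran from 9.76 FPKM (SD 3.27) for *mt-Atp8* and 10.7 (SD 4.2) for *mt-Nd3* to 310 (SD 53.6) for *mt-Co2*. Near-identical nuclear copies exist for 9 mitochondrial members, *mt-Co1* among them. How reads shared with these copies were counted is not given, so the levels of these members, and their distance from other genes, are less certain. By complex, the median FPKM of the nuclear members tested was 67.7 in complex I, 76.5 in complex II, 135 in complex III, 159 in complex IV and 184 in complex V. Complex I was led by *mt-Nd5* at 232 (SD 22.7) and complex II by *Sdhd* at 96.4 (SD 4.57). *mt-Co1* had 18.1 and 17.4 counts in si-NC, and 16.6 and 16.5 in si-Itgb6, for each count of all other mitochondrial members together.

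**Figure D5:**
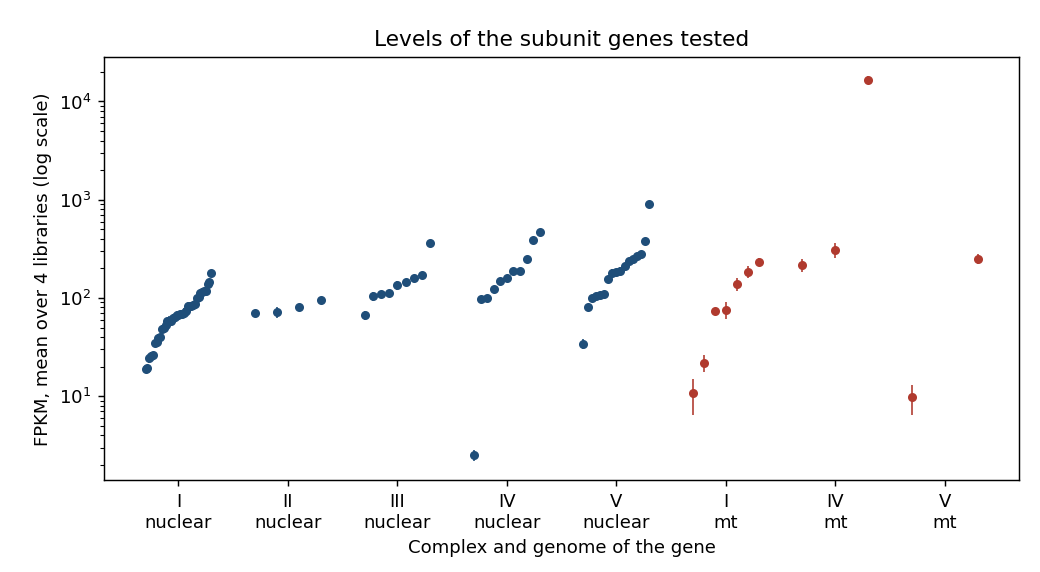
Points give the FPKM of each member tested, as the mean over the 4 libraries on a log axis, and bars the SD over those libraries of both groups; blue marks nuclear and red mitochondrial (mt) genes, ordered by level within each complex. *mt-Co1* stands alone at 16500 FPKM, and the lowest point is *Cox7a1* at 2.52.

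A further 9 members had too few counts to test. *Cox6a2*, *Cox6b2*, *Cox7b2*, *Cox8b*, *Cox8c*, *Ndufb11b* and a second entry for *Atp5o* were at 0 in all 4 libraries, several of them isoforms known from muscle or testis. *Ndufa4l2*, known as a target of the hypoxia factor HIF-1, had a single count, in si-Itgb6 replicate 3. The pseudogene *Cox5b-ps* had 1 count in each of si-NC replicate 2 and si-Itgb6 replicate 1. *Cox4i2*, the hypoxia-linked form of subunit 4 that lies outside the pattern, had 1, 2, 1 and 0 counts beside 4287 to 5053 of *Cox4i1*.

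The promoters of nuclear members are known to share sites for NRF1, ETS factors such as GABP, and YY1. RefSeq windows (GRCm38.p6, 250 bases before to 50 after the start) were found for 69 of the 86 nuclear symbols and for 17492 protein-coding genes. On either strand, CGCNTGCG (NRF1) was in 34.8% of member windows and 11.4% of all, CCGGAAG (ETS) in 23.2% and 11.9%, and AAGATGGC (YY1) in 13.0% and 3.22%. A window can hold several, and 59.4% of member windows held at least 1 of the 3, beside 23.2% of all. TATAAA was in 11.6% and 13.3%, and ACGTG, the core of the site bound by HIF-1, in 26.1% and 20.7%. A letter match is a description and not a bound site. The 120 bases before the start are shown for *Cox6a1* (chr5:115348959-115349078, minus strand, capitals mark the ETS letters on the opposite strand) and *Atp5g2* (chr15:102671048-102671167, minus strand, capitals mark the NRF1 letters). The *Cox6a1* stretch also holds the NRF1 letters on the opposite strand (cgcaggcg), left in lower case. These members were picked by FPKM and not by fold change.
Cox6a1: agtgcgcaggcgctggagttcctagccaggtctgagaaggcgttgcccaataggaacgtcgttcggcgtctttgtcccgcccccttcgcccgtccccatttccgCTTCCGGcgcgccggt
Atp5g2: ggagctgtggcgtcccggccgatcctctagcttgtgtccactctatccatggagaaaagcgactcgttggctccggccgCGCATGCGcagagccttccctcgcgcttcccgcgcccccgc

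The median fold changes of members with and without these letters lay close together. The median log2 fold change was 0.06 over the 24 tested members with the NRF1 letters and 0.02 over the 42 without, 0.02 over 16 with the ETS letters and 0.04 over 50 without, and 0.03 over both the 9 with the YY1 letters and the 57 without.

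The other genes linked to the pathway were called about as often as all genes, or not at all. Of the 45 assembly factors tested, which build the complexes, 2 were called higher (*Ndufaf4*, log2 fold change 0.42, and *Cox11*, 0.35) and 2 lower (*Cox18*, −0.38, and *Ecsit*, −0.27), near the 4.37% and 5.2% of all genes, and 0 had an adjusted p under 0.05. *Cox18*, which inserts a part of the mt-Co2 protein into the membrane, had 292 and 332 counts in si-NC and 243 and 213 in si-Itgb6. Of 17 genes of pyruvate dehydrogenase and the citric acid cycle, 0 were called, with 14 above 0 and a median of 0.04. Of 19 genes of mitochondrial DNA expression and biogenesis, 1 was called lower, again near the 5.2% of all genes. This was *Gabpb1*, the partner subunit of GABP, with 683 and 683 counts against 481 and 579 (log2 fold change −0.30, SE 0.10, adjusted p = 0.0729). *Tfam*, the packaging and transcription factor of mitochondrial DNA, had 706 and 700 counts against 642 and 730 (log2 fold change 0.03), and *Polrmt*, the mitochondrial RNA polymerase, had 273 and 268 against 245 and 181 (log2 fold change −0.27, SE 0.15, called in neither direction). Of 6 hypoxia-linked mitochondrial genes tested, 0 were called, and *Hif1a* was highest with a log2 fold change of 0.16 (SE 0.05, adjusted p = 0.0724). The fold changes of *Ndufaf4*, *Cox11*, *Cox18*, *Ecsit*, *Gabpb1*, *Tfam*, *Polrmt* and *Hif1a* were picked for naming after their values were seen.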

How the data were processed

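Polyadenylated RNA of TKPTS cells was sequenced as non-strand-specific paired reads on a NovaSeq instrument in 2 libraries a group. The authors deposited each estimated count and FPKM per Ensembl gene, and 1447 to 1500 genes a library were not whole numbers. The aligner, counting tool, build and annotation are not given in the sources used here. FPKM, scaled by the authors for gene length and depth, served only for levels between genes. Counts were rounded, filtered with filterByExpr (minimum count 10, total 15) and tested with edgeR 4.0.16 (quasi-likelihood test, TMM, no covariate) and Benjamini-Hochberg adjustment over 11727 genes. The fit was tested on simulated data. CPM used TMM factors. As the labels do not say that libraries came from separate cultures, p-values measure the spread between these libraries, which may be technical.

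Alternatives were DESeq2 1.42.0, RLE factors, library size only, no filter, at least 10 counts in every library, a fold of 1.5, lowess removal (span 0.3) of GC and length trends from GENCODE vM21 transcripts (99.6% of genes matched by identifier), and each library left out. Near-identical stretches (at least 95% over 150 bases) were found with blastn 2.17.0. Members and gene lists were chosen with earlier results of these data known. Named were *Itgb6*, members with an adjusted p under 0.05, the 2 lowest and 2 highest fold changes and the highest FPKM of each complex, untested members and subunits outside the pattern. Other members named were chosen after their values were seen.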

Additional observations from a re-analysis of the deposited data

How the results depend on the processing

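All 12 mitochondrial members stayed above 0 under DESeq2, other scalings, other filters and each library left out, with *mt-Nd6* below 0 only after removal of GC and length trends. The number of members called higher (8) was 4 without these trends, 1 with a fold change of 1.5, and 5 to 14 with 1 library left out. The number called lower (0) was 1 without the trends and 0 to 1 with 1 library left out. Without the trends 4.44% of the members tested were called higher, near the 3.59% of all genes. Called lower were 1.11% of the members, beside 3.59% of all genes. For a fold change of 1.5 the share of all genes is not given, so that count has no background. With 1 library left out, 1 group has no replicate spread, so nothing is concluded from those counts. The median log2 fold change of the mitochondrial members was 0.2114 without the trends, and that of nuclear complex V was 0.0248. With 1 library left out the nuclear median ran from −0.0184 to 0.0784, and by complex from −0.0393 to 0.0632 (I), −0.0668 to 0.0144 (II), −0.0003 to 0.0770 (III), −0.0115 to 0.0949 (IV) and 0.0245 to 0.1177 (V). The sign of a nuclear median by complex therefore rests on single libraries in complexes I to IV. Removal of the trends turned *Sdhb* to 0.0014, *Cyc1* to 0.0917, *Uqcrc1* to 0.0230 and *Cox6a1* to 0.0149. With 1 library left out, signs turned for *Sdhb* (−0.0848 to 0.0510), *Sdha* (−0.0244 to 0.0921), *Uqcrc1* (−0.0659 to 0.0322), *Cox7a1* (−0.2599 to 0.1565), *Cox4i1* (−0.0169 to 0.1281) and *Itgb6* (−0.1030 to 0.0909). None of these genes was called. Of 300 values of 30 named genes under the alternatives, 270 kept direction and side of the threshold, 13 turned sign, 10 newly passed the threshold and 7 no longer passed it. The cause of these shifts was not tested. Genes under about 100 counts a library, such as *mt-Nd3*, *mt-Atp8* and *Cox7a1*, are limited by depth. No paired analysis was possible because the groups share only replicate number 3.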
